A study of Mus musculus with 30 samples.

Results

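Albumin and the other carrier proteins of plasma were followed through 8 genes in mouse liver RNA: *Alb*, *Afp*, *Afm*, *Gc*, *Trf*, *Ttr*, *Rbp4* and *Fetub*. The genes were picked by name, as members of the albumin family and other hepatocyte-made carriers, with counts and results of these libraries already known, so their levels and differences are a description of chosen genes and no value served as a cutoff. All 8 were found in both deposited count tables, among 54429 genes in the time course and 55471 genes in the genotype experiment, and all 8 passed the filter on low counts in both.

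The study asked how the daily rhythm of the liver and the transcription factor Egr-1 relate to lipid metabolism as mice age. In the time course, livers of male C57BL/6J mice aged 2, 6 or 12 months were collected at zeitgeber time (ZT, hours after lights on) 1, 5, 9, 13, 17 and 21, with 1 library per age and time point. In the genotype experiment, male mice with a liver-specific knockout of *Egr-1* (KO), which carried floxed *Egr-1* alleles and a Cre transgene under the *Alb* promoter on a C57BL/6J background, were compared with littermates (WT), with 1 library per genotype, age and collection time. Collections named H and L were taken at the times of highest and lowest Egr-1 protein, which the study's methods give as ZT13 and ZT17 at 2 months, ZT9 and ZT21 at 6 months, and ZT5 and ZT21 at 12 months. All mice were kept on chow under a 12-h light and 12-h dark cycle. The sources used here do not state whether the WT littermates carried the Cre transgene or the floxed alleles. Although the study names several mice per group for this sequencing, they do not say whether a library came from 1 mouse or a pool, so p-values measure only the spread between these libraries. In the KO, Cre was driven by the promoter of *Alb*, which is itself 1 of the genes measured. Deletion was thus directed at cells in which that promoter is or had been active.

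Carrier proteins of plasma are made largely by hepatocytes and secreted. Albumin, the most abundant of them, binds fatty acids, bilirubin, hormones and drugs and holds water in the vessels, while the related alpha-fetoprotein is made by the fetal liver and nearly silenced after birth. Several carriers, among them albumin, transferrin, transthyretin and retinol-binding protein, are known as negative acute phase proteins, whose synthesis falls during inflammation while that of serum amyloid A, haptoglobin and fibrinogen rises.

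In the time course the libraries held 13375377 to 16557378 counted reads, and in the genotype experiment 13747706 to 21748956, with every H library (18764485 to 21748956) deeper than every L library (13747706 to 16633981). Levels are given as CPM, the count of a gene per 1000000 counts of its library, with the library total scaled by the trimmed mean of M-values (TMM). *Egr1* checked the genotype labels, and its level was lower in the library labelled KO in 4 of 6 pairs. It went from 72.2 to 5.49 CPM at 6 months H, from 25.0 to 4.97 CPM at 6 months L and from 55.3 to 1.54 CPM at 12 months L. At 2 months H the gap was small, at low levels (2.54 to 1.96 CPM). At 2 months L (7.36 against 1.45 CPM) and at 12 months H (6.15 against 5.87 CPM) the library labelled KO had the higher level. Hepatocyte markers were present in every library, with a summed level of 7 genes of 5956 to 16272 CPM.

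*Alb*, *Afp* and *Afm* lie next to each other on the plus strand of chromosome 5 (GRCm38 coordinates of the GENCODE M21 annotation), at 90460897 to 90476602, 90490737 to 90508907 and 90518932 to 90553543. *Gc*, the vitamin D-binding protein and the fourth member of the family, lies on the minus strand of the same chromosome at 89417522 to 89457898. *Trf* is at 103204001 to 103230444 on the minus strand of chromosome 9, *Rbp4* at 38116629 to 38125281 on the minus strand of chromosome 19 and *Fetub* at 22918334 to 22939778 on the plus strand of chromosome 16.

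The promoter sequence of *Alb* is shown because the knockout was driven by the promoter of this gene and because, of the 8 genes, its level differed most between the genotypes, as described further on. It was taken from RefSeq (GRCm38.p6) as 250 bases before and 50 bases after the transcription start, at chr5:90460620-90460919, and is read 5′ to 3′ on the plus strand. Capitals mark exact matches to the letters TTATGTAA, taken here for the D-box read by DBP, TEF, HLF and NFIL3, searched on both strands. Sites that differ from these letters were not searched and stay in lower case, so an unmarked stretch may still hold a site of these factors.
Alb: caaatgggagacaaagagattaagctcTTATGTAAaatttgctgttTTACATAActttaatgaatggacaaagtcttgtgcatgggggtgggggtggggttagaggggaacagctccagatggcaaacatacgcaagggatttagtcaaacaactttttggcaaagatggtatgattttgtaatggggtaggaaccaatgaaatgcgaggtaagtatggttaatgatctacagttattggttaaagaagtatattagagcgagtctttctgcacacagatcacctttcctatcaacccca

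Only *Alb* among the 6 genes with a promoter sequence at hand held the D-box letters, once on each strand, at 223 and 204 bases before the start (308 of 32851 promoters, 0.938%). The second of 2 *Fetub* windows held the EGR letters GCGTGGGCG 100 bases before its start (201 of 32851 promoters, 0.612%). CACGTG, the E-box read by CLOCK and BMAL1, was in no window of the 6 genes and in 2349 of 32851 promoters (7.15%). These matches describe letters within the windows and not bound sites.

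Levels spanned more than 4 orders of magnitude. On a scale of CPM per kilobase of exon, *Alb* had a mean level of 31469 ± 7151 (SD, n = 18) in the time course and 19158 ± 6175 (SD, n = 12) in the genotype experiment. *Ttr*, which carries thyroxine and the retinol-binding protein, came next on this scale in both tables, at 3660.0 ± 800.3 in the time course and 5625 ± 622 in the genotype experiment. *Gc* and *Rbp4*, the carriers of vitamin D and of retinol, had per-length levels of 2995 ± 275 and 1774 ± 331 in the time course and could not be ordered in the genotype experiment (2591 ± 388 and 2575 ± 328). *Fetub*, an inhibitor of the egg coat protease ovastacin, was at 133 ± 13.6 and 152 ± 32.1, and *Afm*, a carrier of vitamin E and of WNT proteins, at 68.6 ± 13.9 and 52.1 ± 9.11. *Afp* was near silent, at 0.561 ± 0.179 and 0.646 ± 0.198, and its 15 to 56 counts per library gave wide counting intervals (2 months ZT13, 1.05 CPM with an exact Poisson 95% interval of 0.622 to 1.66 CPM). By contrast, the interval for *Alb* in the WT library of 2 months H ran from 53909.7 to 54115 CPM around 54012 CPM. Such intervals cover counting error alone.

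*Trf*, the iron carrier transferrin, was the exception to a shared order of levels. Its mean level in CPM was 35.3 times higher in the genotype table than in the time-course table, whereas this ratio lay between 0.609 (*Alb*) and 1.54 (*Ttr*) for the other members. In the annotation, the gene Gm20425 on the same strand (chromosome 9, 103190208 to 103230307) covers 2108 of the 3320 exon bases of *Trf* (63.5%); it is a row of the time-course table, with 1 count, and not a row of the genotype table. Time-course values of *Trf* rest on 2012 to 6764 counts per library, against 117227 or more in the genotype table, and the part of the shared bases in this gap or in the differences of *Trf* between ages was not tested. On the opposite strand, Gm42109 covers 108 of the 3038 exon bases of *Afm* (3.55%) and had 80 and 105 counts in all, against 1795 or more counts of *Afm* in every library.

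Comparing KO with WT livers asks which transcripts differ between the genotypes. As the Cre status of the WT littermates is not stated, loss of *Egr-1* and the transgene itself cannot be told apart. *Alb* was lower in all 6 libraries labelled KO and fell by 45.8% in the fit, while *Afm* fell by 24.9% and *Gc* fell by 23.5%. None of the other 5 members passed the test. By edgeR's quasi-likelihood test with the 6 pairs as blocks and Benjamini-Hochberg adjustment over 13639 genes, 3 of 8 members were called lower and 0 higher, beside 1.58% of all genes tested (107 higher and 108 lower), and the members' median log2 fold change was -0.24 beside -0.010 over all genes.

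*Alb* in the WT libraries was 54012, 58314, 66555, 58751, 52848 and 58303 CPM (2 months H and L, 6 months H and L, 12 months H and L). In the same order, the libraries labelled KO held 35820.3, 34036, 27053, 33620.3, 32507 and 26611 CPM. The highest KO library was thus well below the lowest WT library. WT and KO libraries did not overlap, in either direction, for 0.909% of all genes tested (56 genes higher and 68 lower in KO). Ratios within the pairs ran from 0.663 at 2 months H to 0.406 at 6 months H, and the fitted log2 fold change was -0.88 ± 0.11 (SE; adjusted p = 0.0100, edgeR quasi-likelihood test). As a share of all counted reads, *Alb* was 5.29 to 6.13% in WT and 2.81 to 3.58% in KO libraries.

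*Afm* was 159.9 to 212 CPM in WT (median 176) and 125 to 149 CPM in KO (median 132), with no overlap. Its ratio within the pairs was 0.614 to 0.883 and its log2 fold change was -0.41 ± 0.08 (SE; adjusted p = 0.0376, edgeR). *Gc* was 5095 to 5963 CPM in WT (median 5398) and 3883 to 4445 CPM in KO (median 4082), again without overlap. Its pair ratios were 0.677 to 0.872 and its log2 fold change was -0.39 ± 0.08 (SE; adjusted p = 0.0413, edgeR). For all 3 genes the pair of 6 months H had the smallest ratio and the pair of 2 months H the largest.

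**Figure D1:**
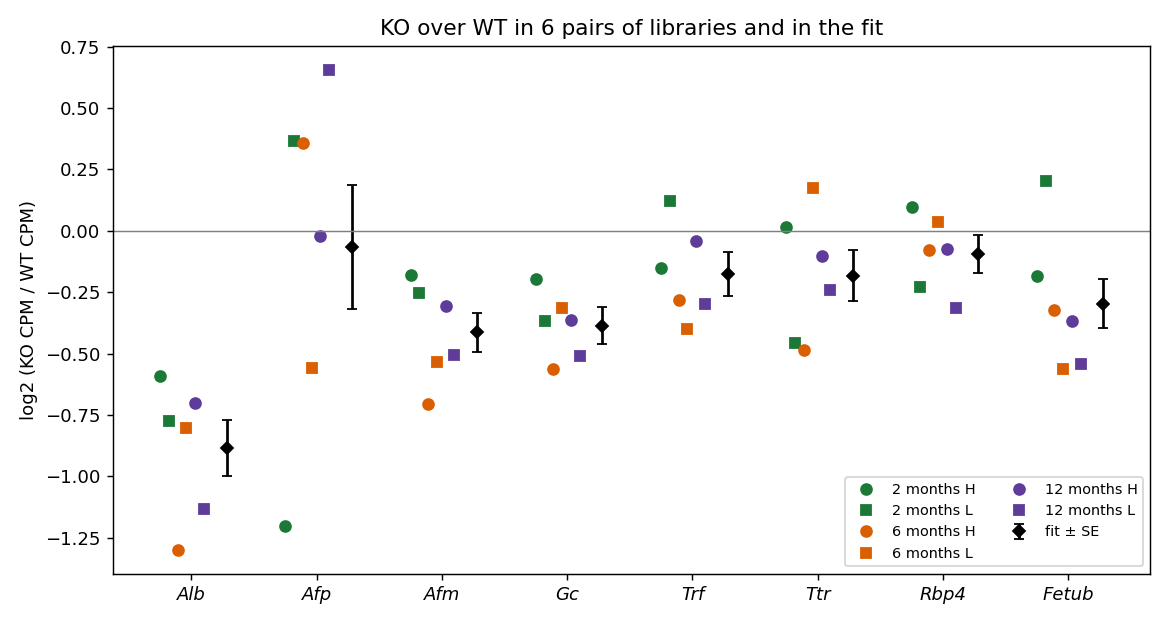
Log2 ratio of KO to WT CPM for the 8 genes, with 1 colored point per pair of libraries (circles H, squares L; color gives the age) and the fitted log2 fold change ± SE as a black diamond. All 6 points of *Alb* (-1.30 to -0.59), *Afm* and *Gc* lie below 0, while those of the other 5 genes lie on both sides.

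These calls rested unevenly on the libraries and the design. *Alb* was called with each pair left out in turn (adjusted p 0.0173 to 0.0374), whereas *Afm* was called in 1 of 6 such fits (0.0403 to 0.117) and *Gc* in 0 of 6 (0.0509 to 0.128; DESeq2 on all pairs called both). Without the pairing of the libraries as a block, only *Alb* was called (adjusted p 0.00858, against 0.0630 for *Afm* and 0.0818 for *Gc*). When the 2 pairs in which *Egr1* was not lower in the library labelled KO were left out, the fitted differences were as large (*Alb* -0.96 ± 0.15, *Afm* -0.48 ± 0.10, *Gc* -0.40 ± 0.11), but none passed the threshold (adjusted p 0.0825, 0.148 and 0.242), and 9 genes in all were called with these 8 libraries. That fit kept the pair of 2 months H, in which *Egr1* was 1.96 CPM in KO against 2.54 CPM in WT. Neither the interaction of genotype with age nor that with collection time was called for any member, with 0 of 8 at an unadjusted p under 0.05 and 0 by DESeq2, beside 0.0147% and 0.00733% of all genes tested. The fitted difference between the L and H effects for *Alb* was -0.04 ± 0.24 on the log2 scale.

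The other carriers differed by less than their spread or by too little to pass. *Fetub* was 253 to 396 CPM in WT (median 327) and 196 to 335 CPM in KO (median 274), and was lower in 5 of 6 pairs (fitted log2 fold change -0.30 ± 0.10, SE; edgeR adjusted p = 0.180). *Ttr* (6301 to 7847 CPM in WT, 5585 to 7114 in KO) and *Trf* (9485 to 13130.4 CPM in WT, 7871 to 11834 in KO) had log2 fold changes of -0.18 ± 0.10 and -0.18 ± 0.09 (edgeR adjusted p = 0.422 and 0.375). *Rbp4* was 3112 to 4148 CPM in WT and 2683 to 4116 in KO (log2 fold change -0.09 ± 0.08, edgeR adjusted p = 0.610), a sign that turned without TMM factors, which moved the median of all genes to 0.11. *Afp* was 1.38 to 2.74 CPM in WT and 1.15 to 3.42 in KO, higher in 3 pairs and lower in 3 (log2 fold change -0.07 ± 0.25, edgeR adjusted p = 0.930). With 20 to 56 counts per library, a difference of the size seen in *Afm* or *Gc* was not detectable in *Afp*.

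Position along chromosome 5 was examined after these values were seen. Within 2 Mb of the start of *Alb*, 37 genes were tested, of which 4 were the albumin family members. Among the other 33, edgeR called 0 genes, which is near the 1.58% called of all genes tested. Of these 33, 3 had an unadjusted p under 0.05, the smallest adjusted p was 0.0865, and 16 had a lower level in KO (median log2 fold change 0.0099). Counted from the start of *Alb*, the start of *Gc* lies at -1003 kb and those of *Afp* and *Afm* at 29.8 and 58.0 kb. The 4 non-members nearest to *Alb* had log2 fold changes of -0.0038 ± 0.32 (*Gm43449*, at 55.0 kb), -0.53 ± 0.26 (*Gm9958*, at -93.7 kb), -0.04 ± 0.06 (*Ankrd17*, at -94.3 kb) and -0.25 ± 0.11 (*5830473C10Rik*, at 100.2 kb), with edgeR adjusted p of 0.997, 0.351, 0.804 and 0.313.

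**Figure D2:**
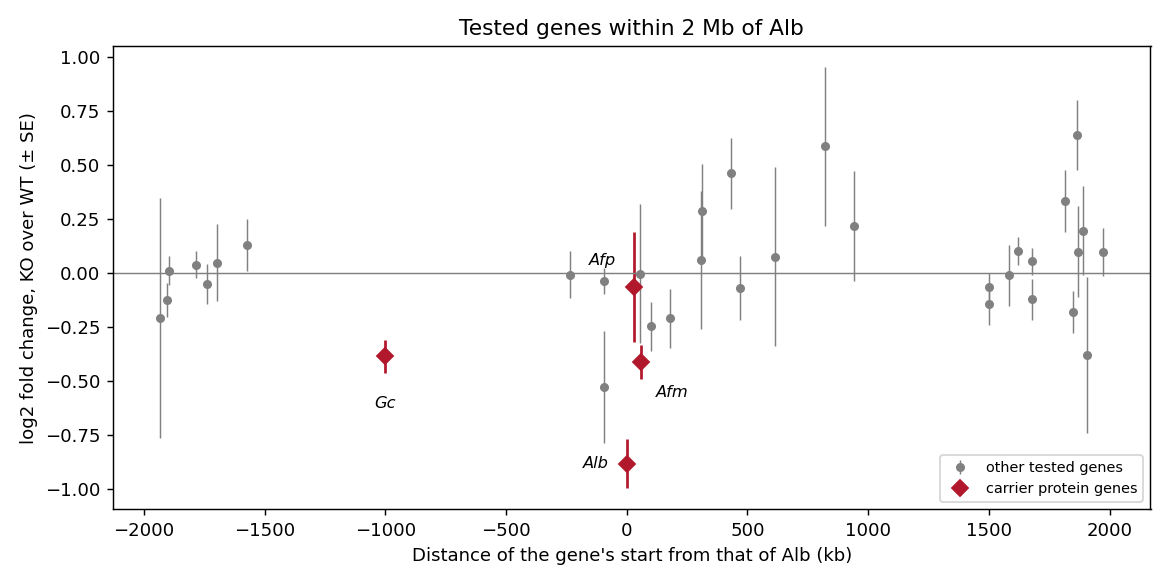
Log2 fold change of KO over WT (± SE) for the 37 tested genes within 2 Mb of *Alb*, by the distance of each gene's start from that of *Alb* in kb; red diamonds are albumin family genes and gray points the other 33. *Alb*, *Afm* and *Gc* lie at -0.88, -0.41 and -0.39, and none of the gray points was called, beside 1.58% of all genes tested.

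Other genes of plasma transport were counted beside the 1.58% of all genes called between the genotypes. A count of 0 in lists this short is near that share. Of the 8 members, 4 had an unadjusted p under 0.05 by edgeR. Of 12 tested carriers outside the 8 members (among them *Ahsg*, *Hpx* and *Hp*) edgeR called 0, with 5 at an unadjusted p under 0.05 and a median log2 fold change of -0.13. Of 12 tested receptors and genes of cargo handling it called 0 (5 at an unadjusted p under 0.05), and of 15 regulators known for the albumin family, among them *Hnf4a*, *Foxa1* to *Foxa3* and the D-box factors, also 0 (2 at an unadjusted p under 0.05, median -0.06). Of 14 acute phase genes, the 3 fibrinogen chains were lower in KO: *Fgb* by -0.48 ± 0.07 (adjusted p = 0.0158), *Fgg* by -0.40 ± 0.08 (0.0414) and *Fga* by -0.39 ± 0.08 (0.0414, all edgeR log2 fold changes), while *Orm3* was higher (0.96 ± 0.19, adjusted p = 0.0386).

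Markers of cell types were examined beside these differences, since in whole liver fewer hepatocytes and less transcript per hepatocyte cannot be told apart. None of 7 hepatocyte markers was called (0 at an unadjusted p under 0.05), their median log2 fold change was -0.0036, and their summed level was 8651 to 15520.3 CPM in WT and 8158 to 16272 CPM in KO. The B-cell gene *Ighm* was higher in KO (1.05 ± 0.12, adjusted p = 0.00793) and so was the collagen gene *Col1a1* (0.51 ± 0.09, adjusted p = 0.0273), while *Sox9*, a cholangiocyte marker, was lower (-1.52 ± 0.27, adjusted p = 0.0317; all edgeR log2 fold changes). Each was the only call in its list. These lists were 4 tested lymphocyte, 5 stellate and 4 tested cholangiocyte markers, with median log2 fold changes of 0.13, 0.29 and -0.046. In summed level the lymphocyte markers ran from 20.8 to 102 CPM in WT and 27.4 to 169 CPM in KO, the stellate markers from 234 to 384 and 281 to 435 CPM, and the cholangiocyte markers from 21.1 to 46.5 and 18.01 to 40.9 CPM. No Kupffer cell, endothelial, neutrophil or erythroid marker was called (3 Kupffer cell markers at an unadjusted p under 0.05). The part of these cell types in the difference of *Alb*, *Afm* and *Gc* was not tested.

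Across the time course, *Rbp4* was lower at 6 months than at both other ages, and the other calls concerned single pairs of ages or *Trf*. *Ttr*, *Rbp4* and *Alb* were higher at 12 than at 6 months by 50.7%, 37.5% and 46.3%, and *Rbp4* fell by 21.1% between 2 and 6 months. *Trf* was higher at 6 and at 12 months than at 2 months by 77.4% and 69.9%, subject to the overlap with Gm20425 given above. *Gc* and *Fetub* differed between ages by at most 3.82% and 6.27% in the fits, and no call was made for them or for *Afp*. These 3 comparisons share libraries (each age enters a pair of them), so they are not independent of each other.

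*Ttr* at 12 months was 4747 to 5989 CPM (median 5356), at 6 months 2833 to 4731 CPM (median 3340.1) and at 2 months 3519 to 4649.7 CPM (median 4161). All 6 libraries of 12 months were above all 6 of 6 months and of 2 months. Of all genes tested, 4.48% and 4.15% did not overlap between these ages in either direction (311 and 304 genes higher at 12 months). Against 6 months the log2 fold change was 0.59 ± 0.13 (adjusted p = 0.00554, edgeR), called in 19 of 19 alternative fits. Against 2 months it was 0.39 ± 0.13 (adjusted p = 0.0563, edgeR), just short of the threshold though higher at 6 of 6 time points; DESeq2 called it (adjusted p = 0.0149). *Rbp4* fell between 2 and 6 months, from 2220.2 to 2806 CPM (median 2458) to 1469 to 2662 CPM (median 1809.9), lower at 6 of 6 time points. The log2 fold change was -0.34 ± 0.11 (adjusted p = 0.0401, edgeR), a call kept in 6 of 18 alternative fits. At 12 months *Rbp4* was 2397 to 2922 CPM (median 2716), again higher than 6 months at 6 of 6 time points (0.46 ± 0.11, adjusted p = 0.00771, edgeR; called in 17 of 19 alternatives).

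*Alb* at 2 months was 72676, 81496, 82671, 70172, 69238 and 80889 CPM at ZT1, 5, 9, 13, 17 and 21. At 6 months the levels at these times were 58579, 37556, 46886, 56974, 86425 and 68616 CPM. At 12 months they were 74637, 79469, 110509, 78899, 77467 and 93448 CPM. Thus 5 libraries of 6 months lay below every library of the other ages, whereas ZT17 lay above all those of 2 months. The log2 fold change was 0.55 ± 0.17 for 12 over 6 months (adjusted p = 0.0358, edgeR), called in 7 of 19 alternatives, and -0.39 ± 0.17 for 6 over 2 months (adjusted p = 0.144), where the ZT17 library of 6 months decided the call: without it *Alb* had an adjusted p of 0.0261. *Afm* followed *Alb*, at 176 to 248 CPM (2 months), 134 to 229.7 CPM (6 months) and 192 to 298 CPM (12 months), with log2 fold changes of -0.32 ± 0.15 (6 over 2 months, adjusted p = 0.166) and 0.43 ± 0.15 (12 over 6 months, adjusted p = 0.0570). Without the ZT17 library of 6 months, *Afm* was likewise called for 6 over 2 months (adjusted p = 0.0212).

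*Trf* was 137 to 275 CPM at 2 months (median 186), 222 to 439 CPM at 6 months (median 354) and 202 to 433 CPM at 12 months (median 347). It was higher than at 2 months at 6 of 6 time points for both later ages, although the ranges overlapped, with log2 fold changes of 0.83 ± 0.15 (adjusted p = 0.00166) and 0.76 ± 0.15 (adjusted p = 0.00292, edgeR). *Gc* was 4778 to 6400.3 CPM over the 18 libraries, the narrowest range of the members together with *Fetub* (218 to 306 CPM), with a highest level 1.34 times and 1.41 times the lowest. *Afp* was 1.05 to 2.93 CPM, with log2 fold changes of -0.41 ± 0.26 and -0.44 ± 0.26 against 2 months (adjusted p = 0.335 and 0.302, edgeR). The counts of members called were 2 of 8 for 6 over 2 months (13.7% of all genes), 1 of 8 for 12 over 2 months (11.9%) and 3 of 8 for 12 over 6 months (16.4%).

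**Figure D3:**
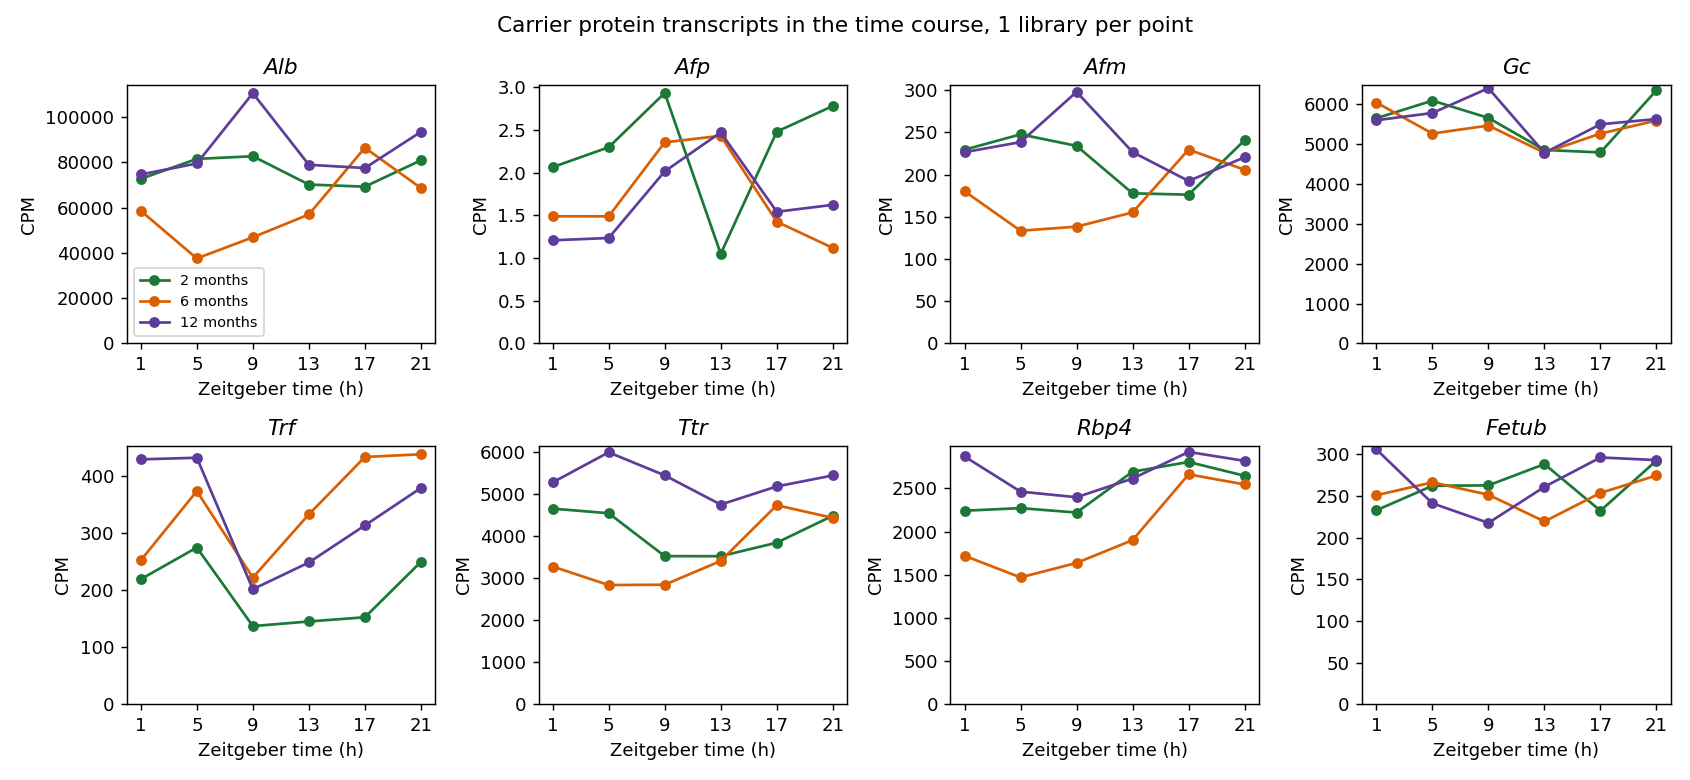
Level in CPM of the 8 genes by zeitgeber time in h, with 1 library per point and 1 line per age (green 2 months, orange 6 months, purple 12 months). *Alb*, *Afm*, *Ttr* and *Rbp4* are lowest at ZT5 of 6 months and highest for that age at ZT17, where *Alb* reaches 86425 CPM, while *Gc* and *Fetub* stay within a narrow band.

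A 24-h cosine fitted within each age was called for *Rbp4*, *Ttr* and *Afm* at 6 months. *Rbp4* had a log2 amplitude of 0.44 with a peak at ZT18.2 (adjusted p = 0.0143), *Ttr* 0.40 with a peak at ZT18.7 (0.0305) and *Afm* 0.39 with a peak at ZT19.3 (0.0440, edgeR quasi-likelihood F-test). *Alb* had the larger log2 amplitude of 0.51 with a peak at ZT18.3 and an adjusted p of 0.0502. Thus 3 of 8 members were called at 6 months, beside 4.85% of all genes. At 2 and at 12 months 0 of 8 were called (1 at an unadjusted p under 0.05 at each age, and 0 by DESeq2), beside 5.13% and 3.79% of all genes. Of 14 acute phase genes, the cosine was called for 7 at 6 months, 0 at 2 months and 5 at 12 months. Of 2 tested neutrophil markers, 2 were called at 6 months and 0 at 2 and at 12 months. When the 6 values of an age were ranked against cosine orders (an exact permutation over 720 orders, as in JTK), *Ttr* at 2 and 6 months and *Rbp4* at 6 months had p = 0.0333, the smallest this test can give before any adjustment.

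The rhythm of 6 months leaned on single libraries and was not shown to differ from that of 2 months. Leaving out the ZT5, ZT17 or ZT21 library of 6 months left 0 members called, and leaving out ZT9 or ZT13 left 1. The test of 6 against 2 months called 0 of 8 members with edgeR (3 at an unadjusted p under 0.05, lowest adjusted p 0.155 for *Afm*; 0.112% of all genes called). DESeq2 called 3 (*Ttr* 0.00527, *Afm* 0.0139 and *Alb* 0.0307 as adjusted p). For 12 against 2 months, 0 of 8 were called, with 0 at an unadjusted p under 0.05 and 0 by DESeq2, beside 0.0% of all genes by edgeR.

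*Dbp*, taken here as a reader of the D-box letters found in the *Alb* window, cycled at all 3 ages. Its log2 amplitudes were 3.56, 3.65 and 2.98, with peaks at ZT9.1, ZT11.8 and ZT10.3 (adjusted p = 8.82e-05, 8.28e-05 and 0.000332, edgeR). *Tef* and *Hlf* were also called at all 3 ages, as was *Nfil3*, which is known to repress through the same box. Of the 15 regulators, 5 were called at 2 months, 4 at 6 and 4 at 12 months. *Alb* itself, beside these, had log2 amplitudes of 0.09 and 0.10 at 2 and 12 months, and the larger one given above at 6 months. Among the other carriers, *Serpina6*, which binds corticosteroids, was called at all 3 ages (log2 amplitudes 0.58, 0.74 and 0.54).

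Acute phase transcripts set the 6-month libraries apart. Of 14 acute phase genes, 13 were higher at 6 than at 2 months (median log2 fold change 1.89; *Saa3* 6.39, *Apcs* 3.49 and *Orm1* 1.94, for example) and 13 were lower at 12 than at 6 months. Their summed level at 6 months was 57482, 102436, 60290.0, 44811, 35314 and 34308 CPM at ZT1, 5, 9, 13, 17 and 21, against 9839 to 15005 CPM at 2 months and 8035 to 16356 CPM at 12 months. The neutrophil genes *S100a9* and *S100a8* were higher at 6 than at 2 months as well (4.14 ± 0.31 and 3.89 ± 0.34 as log2 fold changes), as were the carriers *Hp* (2.28 ± 0.21), *Hpx* (1.85 ± 0.17), *Ambp* (1.00 ± 0.10) and *Serpina7* (2.74 ± 0.31), which carry hemoglobin, heme, retinoids bound to alpha-1-microglobulin and thyroxine. In all, 5 of 12 tested other carriers were higher and 0 lower at 6 than at 2 months, beside 13.7% of all genes called (912 higher and 920 lower). Among these 5 was *Hp*, the gene of haptoglobin, which was named above with the proteins that rise in inflammation.

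Within the 6-month libraries, with 1 per time point, 4 of the 8 carriers were lowest where the acute phase sum was highest. *Alb*, *Afm*, *Ttr* and *Rbp4* had their lowest 6-month level at ZT5, where the acute phase sum was highest, and their highest at ZT17, where the sum was among the 2 lowest. *Trf* did not follow this pattern, with 374 CPM at ZT5 and 439 CPM at ZT21, its highest level. Nor did *Gc* (lowest at ZT13, highest at ZT1), *Fetub* (lowest at ZT13, highest at ZT21) or *Afp* (lowest at ZT21, highest at ZT13). Hepatocyte markers *Cps1* (-0.83 ± 0.12), *Ass1* (-0.77 ± 0.14) and *Fah* (-0.32 ± 0.08) were also lower at 6 than at 2 months (3 of 7 called), and their summed level was 5956 to 8294 CPM against 8716 to 11482 CPM. Of the cholangiocyte markers 3 of 4 tested were higher at 6 months (sums 37.5 to 144 against 29.5 to 47.6 CPM), and the summed neutrophil markers were 21.2 to 139 against 1.94 to 5.59 CPM. The part of the acute phase genes, of these cell types and of single mice in the 6-month levels of the carriers was not tested.

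**Figure D4:**
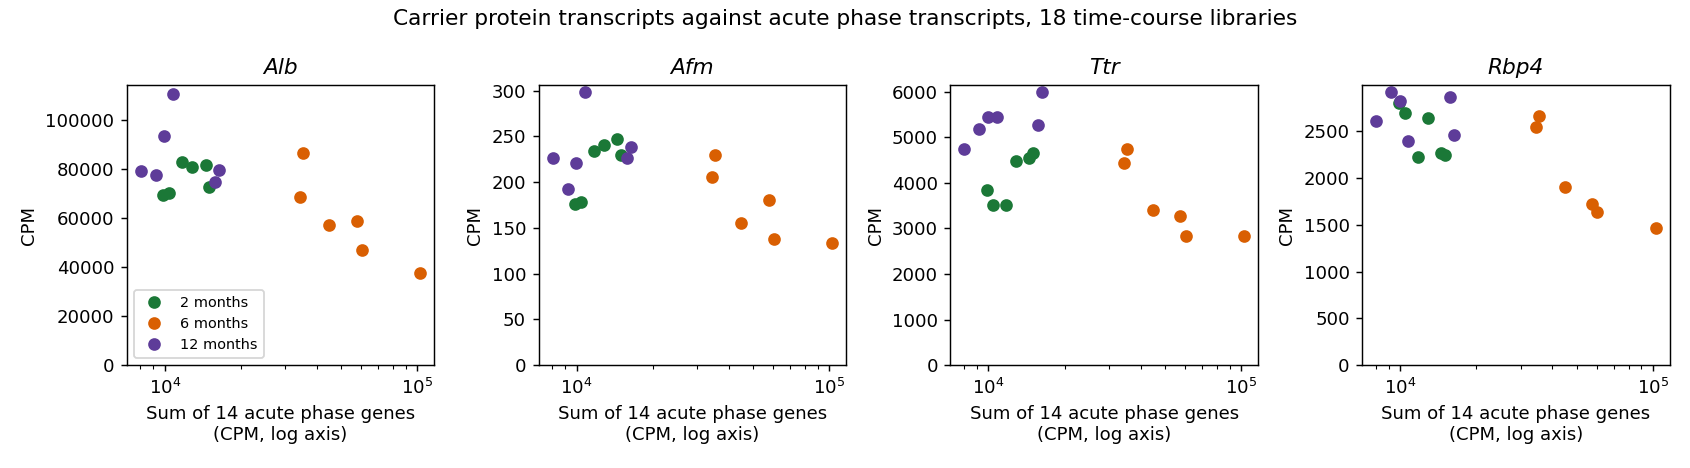
Level of *Alb*, *Afm*, *Ttr* and *Rbp4* in CPM against the summed CPM of 14 acute phase genes on a log axis, with 1 point per time-course library colored by age. The 6 libraries of 6 months lie to the right, from 34308 to 102436 CPM, and the library with the highest sum has the lowest level of all 4 genes, while those of 2 and 12 months overlap on the horizontal axis. The other members, which did not have their lowest 6-month level in that library, are not plotted.

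The genotype experiment gave a second view of age, in 4 libraries per age (both genotypes and both collections). Between 2 and 12 months, *Rbp4* fell by 23.1% and *Fetub* fell by 29.6%, so that 2 of 8 members were called (11.9% of all genes tested). *Rbp4* was 3542 to 4148 CPM at 2 months and 2683 to 3337 CPM at 12 months, lower in 4 of 4 matched libraries and without overlap (18.4% of all genes did not overlap). Its log2 fold change was -0.38 ± 0.09 (adjusted p = 0.0245, edgeR). *Fetub* was 287 to 381 CPM at 2 months and 196 to 302 CPM at 12 months, lower in 3 of 4 matched libraries (-0.51 ± 0.13, adjusted p = 0.0279). These calls were kept in 8 and 6 of 14 alternative fits, and with the WT libraries alone neither was called.

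*Trf* in this table was 10338 to 13130.4 CPM at 2 months and 7871 to 9692 CPM at 12 months. It was lower in 4 of 4 matched libraries without overlap, beside 18.4% of all genes that did not overlap. Its log2 fold change of -0.37 ± 0.13 missed the threshold (adjusted p = 0.100, edgeR). *Ttr* was 5585 to 7665 and 6166 to 7283 CPM at the same ages (0.06 ± 0.12, adjusted p = 0.808). *Alb* was 34036 to 58314 and 26611 to 58303 CPM (-0.14 ± 0.13, adjusted p = 0.556). For 6 over 2 months edgeR called 0 of 8 members (0 at an unadjusted p under 0.05, 0 by DESeq2, 2.73% of all genes), and for 12 over 6 months also 0 (1 at an unadjusted p under 0.05, 0 by DESeq2, 0.0213% of all genes).

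The high acute phase level of the 6-month time course was not seen here. Of the 14 acute phase genes edgeR called 0 for 6 over 2 and for 12 over 6 months (2 at an unadjusted p under 0.05 in each), and their sum over all 12 libraries was 7204 to 12832 CPM, below every 6-month library of the time course. Other carriers that differed between 12 and 2 months were *Ahsg* (-0.96 ± 0.11), *Ambp* (-0.55 ± 0.09), *Hrg* (-0.42 ± 0.11) and *Serpina7* (1.96 ± 0.40), and the regulators *Tef* (-1.54 ± 0.23), *Foxa3* (-1.20 ± 0.21) and *Dbp* (-3.24 ± 0.66) were lower at 12 months (all edgeR log2 fold changes). Of the hepatocyte markers 3 of 7 were lower at 12 months (summed level 12619 to 16272 CPM at 2 months and 8158 to 10124 CPM at 12 months), and 3 of 4 lymphocyte markers were higher (20.8 to 39.0 and 97.9 to 169 CPM). Apart from the L libraries of 6 and 12 months, which were both of ZT21, the libraries of the 3 ages were collected at different zeitgeber times, so that age and clock time cannot be told apart in the comparisons with 2 months or between the H libraries of 6 and 12 months.

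**Figure D5:**
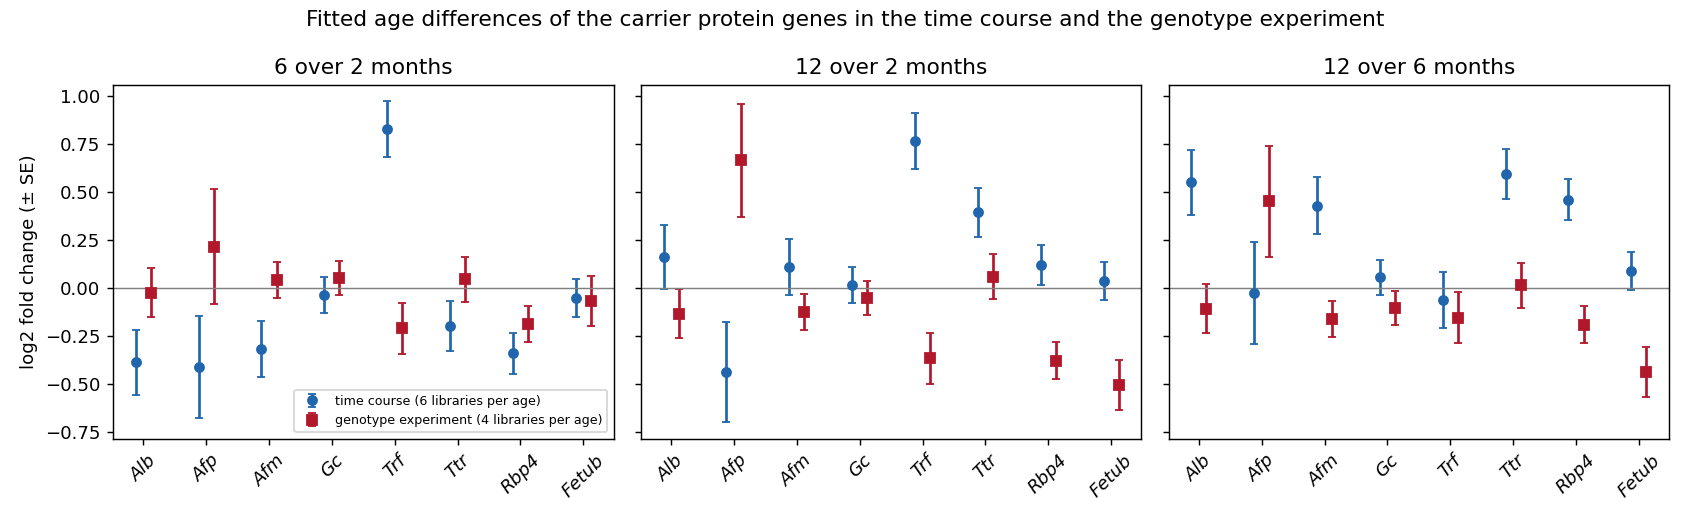
Fitted log2 fold change (± SE) of the 8 genes between ages, with blue circles for the time course (6 libraries per age) and red squares for the genotype experiment (4 libraries per age). For 12 over 2 months *Trf* stands at 0.76 in the time course and -0.37 in the genotype experiment, and for 12 over 6 months *Rbp4* stands at 0.46 and -0.19.

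Genes with the most similar profile to each member were ranked by Pearson's r of log2(CPM + 1) over the 18 time-course libraries, among 7228 genes averaging 10 CPM or more. The libraries share depth, age and time of day, and the 6-month libraries carried the acute phase difference, so the values are a description. *Alb* was closest to *Nadk2* and *Esd* (both r = 0.93) and to its neighbor *Afm* (0.92), and *Afm* was closest to *Alb*, *Sucnr1* and *Rida* (0.92, 0.90 and 0.90). *Gc* was closest to *Psmd6*, *Lamp2* and *Rap2c* (0.92, 0.89 and 0.87). *Ttr* was closest to *Apoa2*, *Ndufa6* and *Commd1* (0.95, 0.94 and 0.91), the first of which is an apolipoprotein of high density lipoprotein; over the 12 genotype libraries these r values were 0.80, 0.70 and 0.44. *Rbp4* was closest to *Pbld2*, *Mcrip2* and *Sugct* (0.93, 0.93 and 0.91), with 0.37, 0.67 and -0.20 over the genotype libraries. *Trf* (*Ost4*, *Rpl41* and *Gm5805*, 0.83 to 0.82), *Fetub* (*Egln1*, *Pcbp1* and *Ado*, 0.77 to 0.74) and *Afp* (*Rnf111*, *Atxn10* and *Sharpin*, 0.76 to 0.70) had no gene as close. Over the genotype libraries these r values were -0.47, -0.61 and -0.40 for *Trf*. They were -0.30, 0.64 and -0.25 for *Fetub* and -0.16, -0.06 and 0.03 for *Afp*. For *Alb*, *Afm* and *Gc*, no r is given over the genotype libraries, which fell into separate WT and KO levels. Between members, r over the 18 libraries was 0.81 for *Alb* and *Ttr*, 0.81 for *Afm* and *Ttr*, and 0.36 for *Alb* and *Gc*.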

How the data were processed

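Poly-A selected RNA of 30 mouse liver libraries was sequenced, and the authors trimmed reads with fastp, aligned them to mm10 with HISAT2 and deposited raw featureCounts counts per gene (per the labels and the study's methods; tool versions and strand are not given in the sources used here). Both deposited count tables were used as they stood, one for the 18 time-course libraries and one for the 12 genotype libraries. Symbols of 53775 of 54429 and IDs of 55144 of 55471 rows were matched to GENCODE M21. Tests used edgeR 4.0.16 (R 4.3.3) with TMM factors, its default filter on low counts, the quasi-likelihood test and Benjamini-Hochberg adjustment at 0.05 over all genes tested, within each table. Age in the time course was fitted with the zeitgeber time as a block, genotype with the pair of the same age and collection as a block, age in the genotype libraries with genotype and collection as terms, and rhythm as a 24-h cosine within age. The pairing comes from the labels, which give age and collection time to both genotypes. DESeq2 1.42.0, other size factors, no filter, no block and omitted libraries were the alternatives. In the time course, the edgeR fits of 6 over 2 months and of the 6-month rhythm were tested on simulated counts. So were those of KO over WT and of 12 over 2 months in the genotype libraries. The interactions, the rhythm by age and the alternatives were not. Gene lists and members were chosen with earlier results of these data known. Named beyond the members were up to 4 genes with the smallest p per list among those called, and the 3 genes with the most similar profile to each member. No library pair held identical values. A regulator on the lists is counted but not reported here.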

Additional observations from a re-analysis of the deposited data

Results flagged for a closer look

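*Rbp4* and *Trf* stood out because every matched library of the time course moved one way and every matched library of the genotype experiment the other way. For 12 over 6 months, *Rbp4* had a log2 fold change of 0.46 in the time course, where it was higher at 6 of 6 time points, and of -0.19 in the genotype libraries, where it was lower in 4 of 4 but not called (adjusted p = 0.459 by edgeR's quasi-likelihood test). For 12 over 2 months, *Trf* had a log2 fold change of 0.76 in the time course (higher at 6 of 6 time points) and of -0.37 in the genotype libraries (lower in 4 of 4, adjusted p = 0.100 by edgeR). The fitted signs also differed for other members without every library following them, such as *Alb* (0.55 and -0.11) and *Afm* (0.43 and -0.16) for 12 over 6 months. The difference between the experiments was not tested, since the tables were normalized separately, and the part of the collection times or of the reads shared by *Trf* and Gm20425 was not tested either. Among 40 sets of libraries (8 genes in 5 groups), 0 had a library far from the others by Dixon's criterion, which chance meets in about 1 of 20 sets.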

How the results depend on the processing

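Of 8 members, the number called lower in KO was 3 with the pairs as a replicate block and 1 without it or with age and collection as additive terms, and it was 0 with the H pairs or the L pairs alone and 0 without the pairs of 2 months L and 12 months H (chosen after seeing the data). Over all genes these fits called 215, 21, 39, 2, 53 and 9, no filter called 636, and DESeq2 and no TMM factors 437 each. Without TMM factors 2 members were called, since *Afm* (-0.29, adjusted p = 0.0642 by edgeR's quasi-likelihood test) lost its call. Leaving out each pair gave 1 to 2 members. *Alb* was called in each of those 6 fits and *Gc* in none. For 6 over 2 months in the time course, 2 members were called, 1 without the replicate block or with only those ages in the fit, and 1 to 4 with single libraries left out, where 4 came without the 6-month ZT17 library. For 12 over 2 months, 1 was called, and 2 without TMM factors, without the filter, with DESeq2 or with only those ages (1 to 2 with libraries left out; the second without the 2-month ZT13 library). For 12 over 6 months, 3 were called, and 1 without the replicate block or without the 12-month libraries of ZT1 and ZT5 (chosen after seeing the data). Rhythmic members at 6 months numbered 3, and 0 to 3 with libraries left out. By the exact permutation test of the JTK kind, whose p was not adjusted, 1 member was under 0.05 at 2 months and 2 at 6 months, and DESeq2 called 3 for rhythm of 6 against 2 months (210 genes, against 15 by edgeR). In the genotype libraries, 2 members were called for 12 over 2 months, 1 without TMM factors, 0 with the WT libraries alone and 0 to 3 with libraries left out.

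Directions turned only for members that were not called in that comparison. For KO over WT, *Afp* was 0.0556 without TMM factors, 0.14 with the L pairs alone and -0.22 to 0.15 with pairs left out, and *Rbp4* was 0.0275 without TMM factors, which moved the median of all genes to 0.11. For 12 over 6 months in the time course, *Afp* was 0.0362 without TMM factors, 0.11 without ZT1 and ZT5 and -0.22 to 0.13 with libraries left out, and *Trf* was 0.0037 without TMM factors and -0.20 to 0.057 with libraries left out. With libraries left out, *Fetub* ranged from -0.10 to 0.00037 (6 over 2 months) and -0.020 to 0.094 (12 over 2 months) and *Gc* from -0.021 to 0.048 (12 over 2 months). Genotype by collection for *Ttr* was -0.0021 with RLE factors and with DESeq2. In the genotype libraries, 6 over 2 months with WT alone gave 0.15 for *Alb*, 0.15 for *Fetub* and -0.0016 for *Ttr*, and omitted libraries gave -0.108 to 0.070 for *Alb*, -0.039 to 0.090 for *Afm*, -0.040 to 0.113 for *Ttr* and -0.215 to 0.00041 for *Fetub*. For 12 over 2 months *Gc* was 0.0184 without TMM factors and 0.0312 with WT alone, and for 12 over 6 months *Ttr* was -0.057 to 0.095 with libraries left out. All are log2 fold changes, and the causes were not tested. Values of single members kept direction and side of the threshold in 1063 cases, lost the call in 80, gained it in 22 and turned in 43. Depth limits *Afp*, with 15 to 56 counts per library.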
